A study of Mus musculus with 10 samples.

Results

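The sarcolemma ion channels and sodium pump subunits described here are 7 genes chosen by name, of 20009 genes with at least 1 count: Scn4a, Clcn1, Kcnc4, Kcna7, Kcnj11, Atp1b1 and Atp1b2. Each gene's value is the sum of the reads counted on its transcripts. The libraries came from soleus, a slow postural muscle of the calf, and from TA (the tibialis anterior, a fast muscle of the shin), of wild-type mice. Each muscle had 5 libraries, from 3 males and 2 females. The labels give genotype and sex but no strain or age and no treatment, and they do not say which replicates came from separate animals, so p-values measure the spread between these libraries. All 7 genes had counts in both muscles.

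A muscle fibre fires when sodium channels open along its surface membrane and the T-tubules, and potassium and chloride currents bring the membrane back to rest. The sodium pump (Na,K-ATPase) then restores the gradients by moving sodium out and potassium in. Fast and slow fibres differ in how often and for how long they fire, and resting chloride conductance and pump content are known to differ between fibre types in rodents.

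The libraries held 726075 to 961237 counts in soleus and 784233 to 939623 in TA. Levels are given as CPM, a library's counts scaled to a common total and by the trimmed mean of M-values (TMM). At this depth 1 read is worth about 1 CPM, so members with a handful of reads carry wide counting error, and the floors given for counts of 0 cover counting error only. The labelled muscles differed in fibre-type genes. The summed level of 8 slow-fibre genes was 7255 to 9563 CPM in soleus and 4.63 to 18.6 CPM in TA. That of 10 fast-fibre genes was 12441 to 18659 CPM in soleus and 75215 to 103800 CPM in TA. Fast-fibre genes were thus also counted in soleus, so the comparison is not of pure slow with pure fast fibres. Among the 10, Tnnt3 differed little (mean 164 CPM in soleus, 195 CPM in TA). Soleus female 2 stood apart in listing 15070 genes with counts, against at most 11858 in any other library. These are whole muscles, in which fewer cells of a type and less RNA per cell cannot be told apart.

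Of the 7 members, 4 were higher in TA (Scn4a, Clcn1, Kcnc4 and Atp1b2), 1 was higher in soleus (Atp1b1), and Kcna7 and Kcnj11 did not pass the test. The test was the quasi-likelihood test of edgeR, with a term for sex, and the threshold was a Benjamini-Hochberg adjusted p under 0.05 over 5115 tested genes. Across all tested genes 565 were called higher in TA (11.0%) and 561 higher in soleus (11.0%). The median log2 fold change of soleus over TA was -0.81 over the members and 0.01 over all tested genes. The members were chosen with earlier results of these data known, so their count and median describe them and do not test them as a set. The filter on low counts asked for about 11.2 CPM in at least 2 libraries. Clcn1 and Atp1b2 reached that level in TA libraries only, so they had to differ to be tested. Apart from them, 2 of 5 members were higher in TA and 1 of 5 in soleus. Without soleus female 2 the same 5 members passed.

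**Figure D1:**
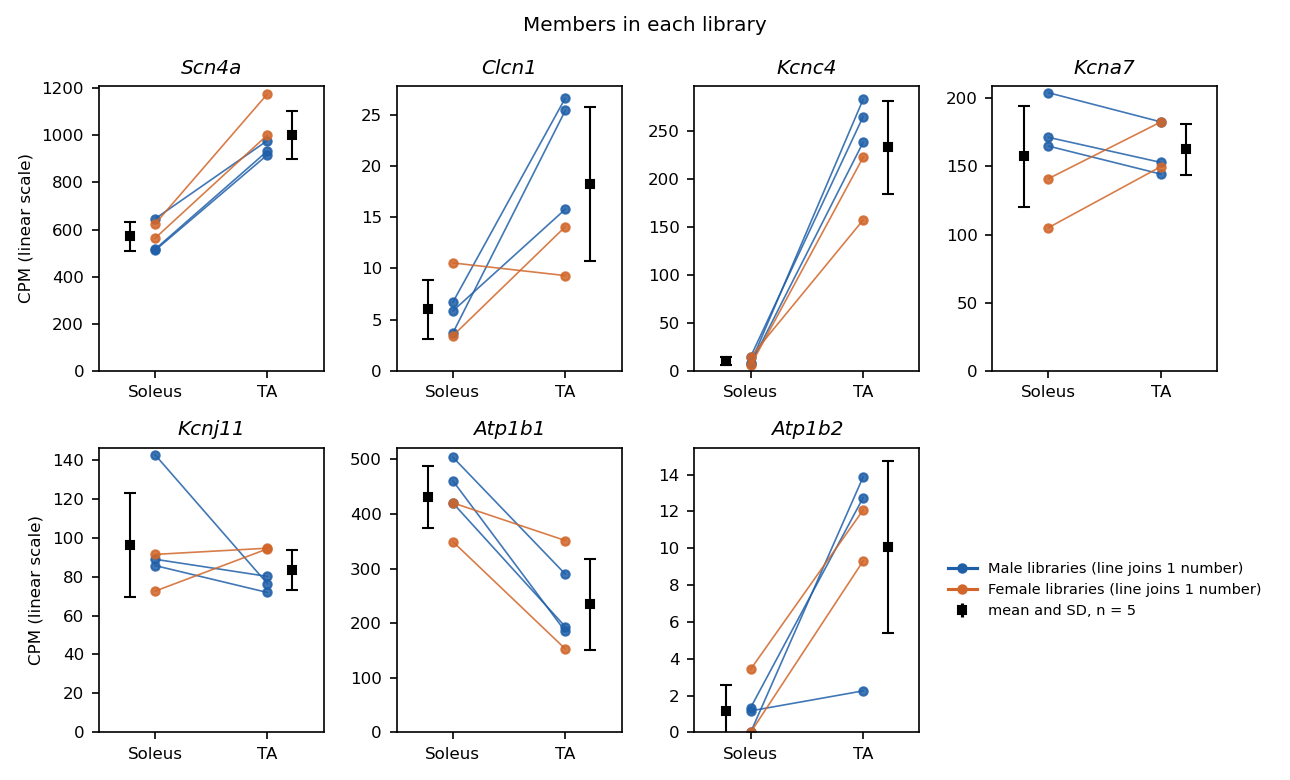
Level of each member in CPM (vertical axes) in the 5 soleus and 5 TA libraries, with 1 point per library, lines joining libraries of the same sex and number, and the mean with its SD (cut at 0 for Atp1b2 in soleus). The groups are separate for Scn4a and Kcnc4 and overlap for the other members.

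Scn4a encodes the pore-forming sodium channel of adult skeletal muscle, which carries the upstroke of the action potential. It lies at chr11:106318592-106353288 on the minus strand (GRCm38). Its level was 516, 511 and 645 CPM in male soleus and 563 and 624 CPM in female soleus, against 934, 917 and 978 CPM in male TA and 1002 and 1176 CPM in female TA. Every TA library was above every soleus library, as was the case for 397 of all tested genes (7.76%). Soleus averaged 572 ± 61.2 CPM and TA 1001 ± 103 CPM (SD, n = 5 each). Scn4a was 1.75-fold higher in TA, with a log2 fold change of soleus over TA of -0.81 (SE 0.126, edgeR adjusted p = 0.000625). The difference had the same sign in both sexes, at -0.76 (SE 0.163) in males and -0.88 (SE 0.199) in females. The protein-coding transcript held 94.8% of its counts.

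Clcn1 encodes the chloride channel that provides most of the resting chloride conductance of the fibre, and its loss causes myotonia in mice, goats and people. It lies at chr6:42286685-42315756 on the plus strand. It was counted with 5, 5 and 3 reads in male soleus and 8 and 3 in female soleus, against 14, 23 and 22 in male TA and 8 and 14 in female TA. The groups met in the females, where soleus female 1 and TA female 1 both had 8 reads. Soleus averaged 6.04 ± 2.88 CPM and TA 18.2 ± 7.51 CPM (SD, n = 5 each), 2.93-fold higher in TA (log2 fold change -1.55, SE 0.389, edgeR adjusted p = 0.0129). The difference was -2.04 (SE 0.464) in males and -0.78 (SE 0.579) in females, which did not pass alone (adjusted p = 0.466).

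Few of these reads were counted on a transcript that encodes the chloride channel. Of the Clcn1 reads, 87.6% were counted on a processed transcript with no coding sequence, 9.52% on a retained intron, and 2.86% (3 reads) on the longest protein-coding transcript. Only 2.33% of the 31-base words of that coding transcript occur in no other transcript of the annotation, against 20.5% of those of the processed transcript. With protein-coding transcripts alone Clcn1 had too few reads to be tested. The gene also overlaps Fam131b on the opposite strand, which had 2 reads over all soleus libraries and 1 over all TA libraries. The level of Clcn1 is therefore not on a scale with that of the other members.

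Kcnc4 encodes a rapidly inactivating voltage-gated potassium channel of the Shaw-related family. It lies at chr3:107438303-107459552 on the minus strand and was counted on 1 protein-coding transcript. It had 6, 6 and 12 reads in male soleus and 11 and 5 in female soleus, against 211, 244 and 229 in male TA and 135 and 221 in female TA. In CPM this was 7.02, 8.03, 14.7, 14.5 and 5.71 in the soleus libraries, against 238, 283, 265, 157 and 222 in the TA libraries. The lowest TA library was far above the highest soleus library. Kcnc4 was 23.0-fold higher in TA (log2 fold change -4.52, SE 0.254, edgeR adjusted p = 1.25e-07), the largest difference among the members. It was -4.70 (SE 0.329) in males and -4.24 (SE 0.403) in females.

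Kcna7 encodes a Shaker-related voltage-gated potassium channel found in skeletal muscle and heart. It lies at chr7:45405653-45409763 on the plus strand, with 1 protein-coding transcript in the files whose sequence is all its own. Its level was 165, 171 and 204 CPM in male soleus and 141 and 105 CPM in female soleus, against 144, 153 and 183 CPM in male TA and 183 and 149.9 CPM in female TA. The TA libraries lay inside the range of the soleus libraries. The log2 fold change was -0.07 (SE 0.167, edgeR adjusted p = 0.821), with a 95% interval of -0.43 to 0.29. In soleus, male libraries were all above female ones (male over female log2 0.55, SE 0.217), with an unadjusted p of 0.0271 and an edgeR adjusted p of 0.237. In that comparison 845 of 5115 genes had an unadjusted p under 0.05, so 1 of 7 members is near the background.

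Kcnj11 encodes the pore of the ATP-sensitive potassium channel, an inward rectifier that opens when ATP falls. It lies at chr7:46093953-46100764 on the minus strand, and 98.6% of its counts fell on 1 transcript. Its level was 88.9, 85.7 and 143 CPM in male soleus and 72.5 and 91.4 CPM in female soleus, against 80.1, 71.8 and 76.3 CPM in male TA and 94.2 and 94.6 CPM in female TA. Soleus male 3 was well above the other libraries, and the rest overlapped. The log2 fold change was 0.20 (SE 0.191, edgeR adjusted p = 0.506), with a 95% interval of -0.21 to 0.62. The regulatory subunits that assemble with this pore, Abcc8 and Abcc9, were too low to be tested, with 4 and 4 reads over all soleus libraries, against 5 and 31 over all TA libraries. Abcc8 and Abcc9 were named after their values were seen.

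Atp1b1 encodes a beta subunit of the sodium pump, which the catalytic alpha subunit needs to fold and reach the membrane. It lies at chr1:164437109-164458355 on the minus strand. Its level was 504, 420.2 and 461 CPM in male soleus and 420.4 and 349 CPM in female soleus, against 289.8, 193 and 185 CPM in male TA and 351 and 153 CPM in female TA. The groups touched at 1 point, since TA female 1 was just above soleus female 2. Soleus averaged 431 ± 57.2 CPM and TA 234 ± 82.9 CPM (SD, n = 5 each), 1.83-fold higher in soleus (log2 fold change 0.88, SE 0.222, edgeR adjusted p = 0.0134). Of the 31-base words of its main transcript 20.2% are shared with Nme7, which lies on the opposite strand and had 6 reads over all soleus libraries and 5 over all TA libraries. Soleus was above TA in all 5 pairs of libraries with the same sex and number, a pattern not counted over all tested genes. The difference was 1.05 (SE 0.286) in males and 0.61 (SE 0.348) in females, which did not pass alone (adjusted p = 0.326).

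Atp1b2 encodes another beta subunit of the pump, and in rat muscle it is described as the beta subunit of fast glycolytic fibres, with the Atp1b1 product prevailing in slow oxidative ones. It lies at chr11:69599736-69605942 on the minus strand. It had 1, 1 and 0 reads in male soleus and 0 and 3 in female soleus, against 2, 11 and 12 in male TA and 8 and 12 in female TA. TA male 1 was low and overlapped the soleus libraries, while the other TA libraries were all above them. The counts of 0 allow levels of up to 3.69 CPM in soleus male 3 and 3.95 CPM in soleus female 1, taking 3 reads as the floor. Soleus averaged 1.19 ± 1.40 CPM and TA 10.0 ± 4.67 CPM (SD, n = 5 each). Atp1b2 was 7.47-fold higher in TA by the fit (log2 fold change -2.90, SE 0.704, edgeR adjusted p = 0.0108). The fold was larger without soleus female 2 (log2 fold change -3.68, adjusted p = 0.00554), and in males alone it did not pass (adjusted p = 0.0511).

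As with Clcn1, most Atp1b2 reads (70.0%) were counted on a processed transcript, and 26.0% on the protein-coding one. The protein-coding transcript had 1 read over all soleus libraries and 12 over all TA libraries, and only 5 of its 31-base words are its own. Of the reads of these 2 beta genes, Atp1b1 made up 99.7 ± 0.398% in soleus libraries and 95.2 ± 2.92% in TA libraries (SD, n = 5 each), with the third beta gene, Atp1b3, left out of the sum. Atp1b3 had 232 reads over all soleus libraries and 184 over all TA libraries. This share was 99.0% to 100% in soleus libraries and 92.7% to 99.2% in TA libraries, which overlap through TA male 1. The difference of 4.46 points in means was 1.31 points on protein-coding transcripts alone, so the share depends on which transcripts were counted.

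**Figure D2:**
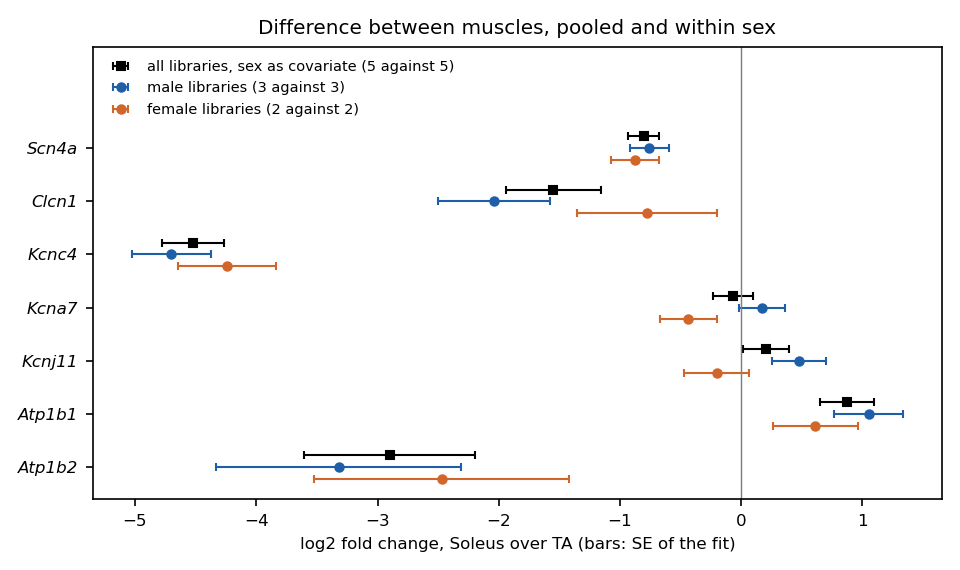
Log2 fold change of soleus over TA for each member (horizontal axis), over all libraries and within each sex, with bars of 1 SE of the fit. In both sexes Kcnc4, Atp1b2, Clcn1 and Scn4a lie on the TA side and Atp1b1 lies on the soleus side, while Kcna7 and Kcnj11 lie on different sides in males and females.

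Promoter sequences from RefSeq (GRCm38.p6), 250 bases before to 50 bases after the start site, were matched for 5 of the 7 members. Those of Kcnc4 and Clcn1 are shown as members higher in TA, and that of Atp1b1 as the member higher in soleus. Each is given on the strand of its gene, 5' to 3'. Capitals mark E-boxes (CANNTG, the core bound by MyoD and other basic helix-loop-helix factors) and, in Clcn1, 1 further match to CTANNNNTAG, the core of the site of MEF2, a muscle transcription factor. The MEF2 search was added after the sequences had been seen.
Kcnc4: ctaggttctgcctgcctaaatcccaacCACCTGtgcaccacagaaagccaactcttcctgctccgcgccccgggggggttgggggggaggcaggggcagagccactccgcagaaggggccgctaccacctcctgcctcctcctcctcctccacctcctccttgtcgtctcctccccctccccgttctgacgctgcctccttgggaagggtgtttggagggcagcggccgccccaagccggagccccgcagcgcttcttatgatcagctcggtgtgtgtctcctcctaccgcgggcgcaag
Clcn1: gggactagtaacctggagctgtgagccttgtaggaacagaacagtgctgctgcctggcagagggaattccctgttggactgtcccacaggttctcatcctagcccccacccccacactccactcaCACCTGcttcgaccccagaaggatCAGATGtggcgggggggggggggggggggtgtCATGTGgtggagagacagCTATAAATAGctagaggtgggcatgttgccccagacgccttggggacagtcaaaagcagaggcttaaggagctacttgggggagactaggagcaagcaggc
Atp1b1: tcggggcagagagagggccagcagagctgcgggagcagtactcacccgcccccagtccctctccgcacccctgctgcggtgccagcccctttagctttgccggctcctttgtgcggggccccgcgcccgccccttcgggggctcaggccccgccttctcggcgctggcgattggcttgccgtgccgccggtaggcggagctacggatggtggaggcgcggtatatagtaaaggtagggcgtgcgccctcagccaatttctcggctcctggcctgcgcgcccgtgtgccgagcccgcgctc

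The Kcnc4 window is chr3:107458849-107459148 (minus strand), with 1 E-box at bases -223 to -218 from the start site. The Clcn1 window is chr6:42286435-42286734 (plus strand), with 3 E-boxes at -125 to -120, -101 to -96 and -69 to -64 and the MEF2 match CTATAAATAG at -51 to -42. It lies at the start of the longest protein-coding transcript, which had 3 reads, whereas the processed transcript with 87.6% of the Clcn1 reads starts at position 42298900 of chromosome 6, downstream of the window. The Atp1b1 window is chr1:164458306-164458605 (minus strand), with neither motif. On both strands of all 32851 RefSeq promoters of this length, 72.3% hold an E-box and 3.69% hold the MEF2 core, so an E-box alone sets no promoter apart. The Atp1b1 window has 71% G and C and 31 CpG pairs, and the Kcnc4 window 66.7% and 17, against medians of 52.7% and 7 over all promoters. The Clcn1 window has 59% and 3. The Scn4a window has no E-box, and the Kcna7 window has 3. The RefSeq start site used lies 654 bases downstream of the GENCODE gene start for Kcnc4, 307 for Kcna7 and 3898 for Scn4a. The Kcnc4 and Kcna7 windows therefore each lie wholly within the span of the transcript counted for that gene. For Scn4a the GENCODE gene start is that of a processed transcript with 5.19% of its counts. The protein-coding Scn4a transcript starts at position 106349389 of chromosome 11, beside the RefSeq site at 106349390. The search for TCAGGTT, the MEF3 core, which 4.07% of promoters hold, found no match in these 5 windows.

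**Figure D3:**
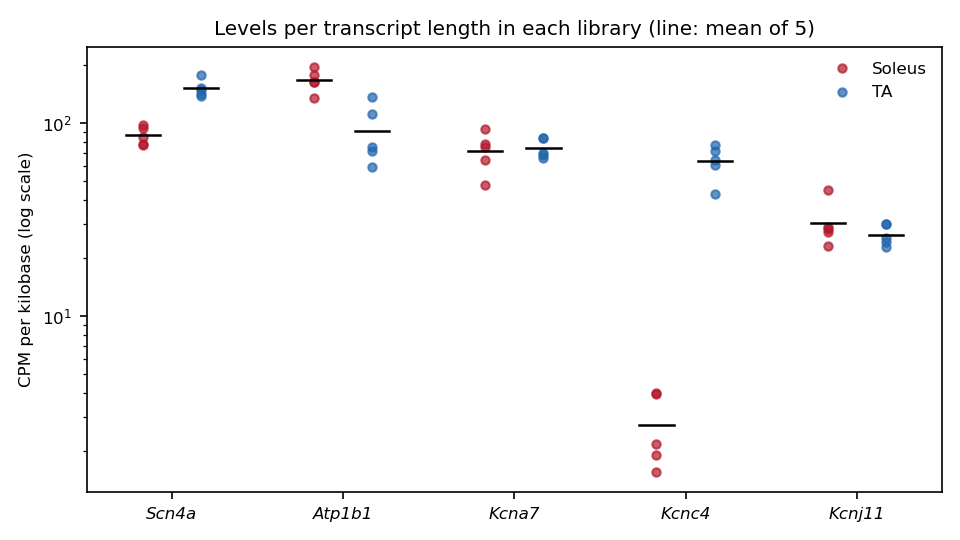
CPM per kilobase of transcript (vertical log axis) for the 5 members counted mainly on coding transcripts, with 1 point per library and lines at the means. Atp1b1 is highest in soleus, Scn4a is highest in TA, and Kcnc4 alone changes by more than 10-fold between the muscles.

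Levels were compared between genes only per kilobase of transcript, for the 5 members counted mainly on coding transcripts. This scale assumes that reads spread along the transcript, which a tag-based library may not do. In soleus the order was Atp1b1 at 167 ± 22.2 CPM per kb, Scn4a at 86.6 ± 9.27, Kcna7 at 72.1 ± 16.9, Kcnj11 at 30.6 ± 8.57 and Kcnc4 at 2.73 ± 1.17 CPM per kb (SD, n = 5). The ranges of Scn4a and Kcna7 overlapped in soleus and the other neighbours did not. In TA the order was Scn4a at 152 ± 15.6 CPM per kb, Atp1b1 at 90.9 ± 32.1, Kcna7 at 74.5 ± 8.55, Kcnc4 at 63.5 ± 13.2 and Kcnj11 at 26.5 ± 3.33 CPM per kb (SD, n = 5). In TA Scn4a and Kcnj11 stood apart, and the ranges of Atp1b1, Kcna7 and Kcnc4 overlapped.

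No member's difference between muscles was shown to depend on sex. The interaction passed for 0 of 5115 genes by edgeR (0%), with 351 genes and 0 members at an unadjusted p under 0.05, and DESeq2 called 6 genes and no member. The member differences closest to a sex dependence were those of Kcnj11, at 0.47 (SE 0.221) in males and -0.20 (SE 0.269) in females, and Kcna7, at 0.17 (SE 0.190) in males and -0.44 (SE 0.235) in females. Male over female within soleus was called for 28 genes (0.547%) and within TA for 33 genes (0.645%), none of them a member.

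Partners of the members were taken from lists of 108 other pump and channel genes, of which 31 were high enough to test. Of these, soleus was higher for 8 and TA for 7, and 16 did not pass. Over all tested genes the share called was 11.0% in each direction, which is the background for the list counts below. The lists were chosen with earlier results of these data known, so their counts are a description. The median log2 fold change of the 31 was -0.31, against 0.01 over all tested genes. Fxyd6, Ano10 and Kcna2 stayed under the filter level of about 11.2 CPM in every TA library. Kcng4, Slc8a1 and Slc8a3 stayed under it in every soleus library. These genes were tested only through the muscle where they are high, so they had to differ to be tested.

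For the sodium pump, 3 of the 5 tested genes were higher in soleus and none was higher in TA. Fxyd6, a small regulator of the pump, averaged 13.3 ± 5.32 CPM in soleus and 1.79 ± 0.603 CPM in TA (SD, n = 5 each; log2 fold change 2.79, SE 0.378, edgeR adjusted p = 0.000201). Atp1b3, another beta subunit, had 0.47 (SE 0.198, adjusted p = 0.114), passing only without soleus female 1 (0.56, adjusted p = 0.0433). Fxyd1, the phospholemman gene, had 0.09 (SE 0.395, adjusted p = 0.904), with a sign that varied between settings.

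None of the 3 tested partners of Scn4a passed. The auxiliary subunit Scn4b had a log2 fold change of -0.32 (SE 0.183, edgeR adjusted p = 0.244). Scn7a, a sodium-sensing channel, had -0.47 (SE 0.322, adjusted p = 0.344).

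Soleus was higher for 2 of the 7 tested chloride and anion channel genes, and TA for another 2. Ano5, a member of the anoctamin family mutated in a limb-girdle muscular dystrophy, averaged 35.2 ± 8.33 CPM in soleus and 172 ± 21.1 CPM in TA (SD, n = 5 each; log2 fold change -2.29, SE 0.179, edgeR adjusted p = 2.87e-06). Ano10, another anoctamin, was higher in soleus (2.02, SE 0.536, adjusted p = 0.0170), but not without soleus female 2 (1.51, adjusted p = 0.0705) or without TA female 1 (1.68, adjusted p = 0.0567). Lrrc8d and Lrrc8c, subunits of volume-regulated anion channels, had 0.86 (SE 0.273, adjusted p = 0.0411) and -0.62 (SE 0.199, adjusted p = 0.0431). With 1 library left out in turn, Lrrc8d passed in 2 of 10 fits, without soleus male 2 (adjusted p = 0.0469) and without soleus female 1 (0.0178). Lrrc8c passed in 3 of 10, without TA male 1 (0.0423), soleus female 1 (0.0314) or TA female 2 (0.0446). Clcn4, an endosomal relative of Clcn1, had -0.31 (SE 0.299, adjusted p = 0.520).

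Of the 6 tested voltage-gated potassium channel genes besides the members, 2 were higher in TA and 1 in soleus. Kcnc1, a Shaw-related channel of the same family as Kcnc4, averaged 50.6 ± 14.4 CPM in soleus and 296 ± 82.3 CPM in TA (SD, n = 5 each; log2 fold change -2.55, SE 0.259, edgeR adjusted p = 1.77e-05). Kcng4, which encodes a silent subunit that modifies other channels, was at 0 to 4.68 CPM in soleus and averaged 33.7 ± 20.5 CPM in TA (log2 fold change -3.81, SE 0.434, adjusted p = 4.48e-05). Kcnc1 and Kcng4 lay on the side of Kcnc4, with every TA library above every soleus library in both, as for 7.76% of all tested genes. Kcng4 was tested only through its TA libraries, so its direction was set by the filter. The Shaker-related genes Kcna2 and Kcna5, relatives of Kcna7, had 1.26 (SE 0.459, adjusted p = 0.0679) and -0.76 (SE 0.426, adjusted p = 0.238), and Kcna2 passed only without soleus female 1 (adjusted p = 0.0205). Kcna2 was tested only through its soleus libraries, so its direction too was set by the filter.

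The inward rectifier Kcnj2, which helps to set the resting potential, was the only tested relative of Kcnj11, with a log2 fold change of 0.20 (SE 0.180, edgeR adjusted p = 0.493). Both tested calcium-activated potassium channel genes were higher in soleus. Kcnma1, the large-conductance channel, averaged 171 ± 57.7 CPM in soleus and 22.4 ± 11.5 CPM in TA (SD, n = 5 each; log2 fold change 2.90, SE 0.270, edgeR adjusted p = 8.87e-06). Kcnn3, a small-conductance channel, had 0.92 (SE 0.270, adjusted p = 0.0286). Its call was lost without soleus male 1 (adjusted p = 0.0523), soleus male 2 (0.0569), soleus female 1 (0.0602), TA male 2 (0.0686) or TA female 2 (0.0729), and with no filter on low counts (0.0565).

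Among 7 tested exchangers and cotransporters, 3 were higher in TA and none in soleus. Slc12a2, which brings sodium, potassium and chloride into the cell together, averaged 190 ± 43.7 CPM in soleus and 451 ± 80.7 CPM in TA (SD, n = 5 each; log2 fold change -1.25, SE 0.187, edgeR adjusted p = 0.000452). The sodium-calcium exchangers Slc8a1 and Slc8a3 had -2.27 (SE 0.395, adjusted p = 0.00134) and -2.56 (SE 0.626, adjusted p = 0.0113). Slc8a3 was at -3.41 without soleus male 2. The sodium-proton exchanger Slc9a2 had 0.37 (SE 0.191, adjusted p = 0.203).

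**Figure D4:**
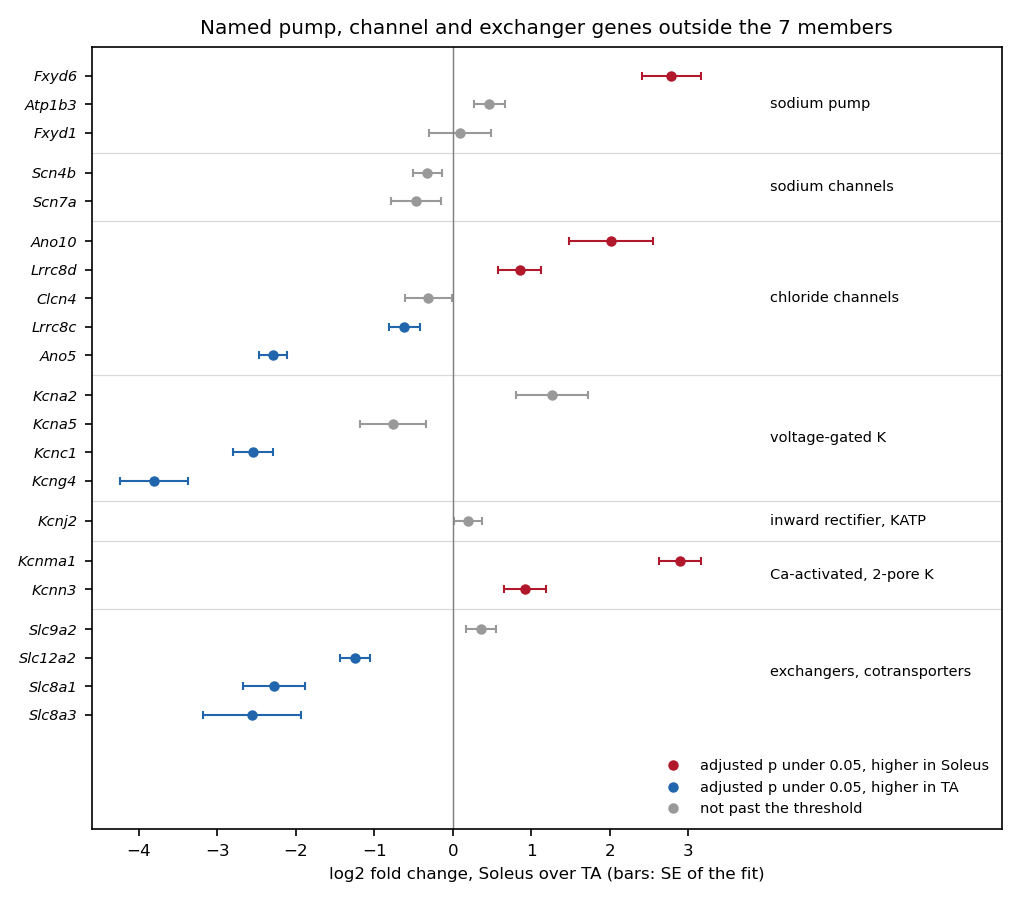
Log2 fold change of soleus over TA (horizontal axis) of the pump, channel and exchanger genes named here, by list, with bars of 1 SE of the fit and a colour for each call. Kcnma1 and Fxyd6 lie farthest to the soleus side, and Kcng4 and the exchangers that pass lie on the TA side.

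Some markers of other cell types differed between the muscles beside these results. The summed level of 8 endothelial markers was 208 to 306 CPM in soleus and 289 to 850 CPM in TA, with 2 of 4 tested genes higher in TA. These were Cdh5 (mean 165 CPM in soleus, 395 CPM in TA) and Kdr (47.3 and 126 CPM). The other tested genes were not called, with Vwf on the soleus side (log2 fold change 1.17, edgeR adjusted p = 0.0688) and Cldn5 on the TA side (-0.93, adjusted p = 0.104). Vwf stayed under the filter level of about 11.2 CPM in every TA library, so it had to differ to be tested. Pecam1, not tested, had 20 reads over all soleus libraries and 19 over all TA libraries. For 8 smooth muscle and pericyte markers the sum was 419 to 662 CPM in soleus and 604 to 1186 CPM in TA, again with 2 of 4 tested higher in TA. These were Rgs5 and Notch3, while Acta2 (log2 fold change -0.13) and Tagln (-0.15) were not called. For 6 adipocyte markers the sum was 20.6 to 32.9 CPM in soleus and 2.26 to 6.98 CPM in TA, with both tested genes higher in soleus. These genes, Adipoq and Cidea, also stayed under the filter level in every TA library, so their direction was set by the filter. Nerve and Schwann cell markers summed to 14.5 to 44.2 CPM in soleus and 13.5 to 28.2 CPM in TA, with Sox10 at 0 throughout. Fibro-adipogenic markers summed to 226 to 11407 CPM in soleus and 426 to 5439 CPM in TA, with 1 of 7 tested genes higher in each. Cd34, higher in soleus, stayed under the filter level in every TA library. Smoc2, higher in TA, stayed under it in every soleus library. The direction of both was therefore set by the filter. Macrophage markers summed to 296 to 787 CPM in soleus and 431 to 555 CPM in TA, and red cell markers to 261 to 36848 CPM in soleus and 1569 to 21794 CPM in TA, with none called. Their part in the members' differences was not tested. Epithelial markers summed to 234 CPM in soleus male 1, the soleus library with the most Atp1b1, and stayed at or under 5.82 CPM in TA. Nearly all of that sum was Krt18 (218 CPM) and Krt8 (15.2 CPM). Of the other epithelial markers, Epcam, Cdh1 and Krt5 had 1, 3 and 2 reads over all soleus libraries, and Krt14 had none. Without soleus male 1 the Atp1b1 difference was 0.82 (edgeR adjusted p = 0.0387). The part of epithelial cells in the Atp1b1 level was not tested.

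For each member, the genes with the most similar pattern were those with the smallest root mean square difference in log2 CPM, centred on each gene's mean, over the 10 libraries among 2855 other protein-coding genes, sex chromosomes left out, whose mean level reached 20 CPM. A prior count of 2 went into the log2 CPM, which shrinks the folds of genes with few reads. The muscle difference itself is part of this distance. Kcnc4 was nearest to Tmem233 (0.41), Mylk4 (0.48) and Cdh4 (0.48), against a median of 2.19. Scn4a was nearest to Lmtk2, Tab2 and Sppl2a (0.14 each, median 0.56), and Clcn1 to Eepd1, Deptor and Pla2g7 (0.30 to 0.34, median 0.85). Atp1b1 was nearest to Yipf7 and Prrc1 (0.23 each, median 0.70), and Atp1b2 to Eya4, Gm3839 and Rbfox1 (0.46 to 0.51, median 1.11). For the 2 members with few reads the fitted log2 fold changes of these genes were smaller. They were -2.08, -1.85 and -1.77, against -2.90 for Atp1b2, and -1.17, -1.42 and -1.05, against -1.55 for Clcn1. Kcna7 was nearest to Gsr and Dusp28 (0.13 each, median 0.45), and Kcnj11 to Ncbp1, Plxna4 and Pno1 (0.15 to 0.16, median 0.48).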

How the data were processed

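The deposited files hold read counts per Ensembl transcript for each library. Per the labels, 10 ng of total RNA entered a Tag-Seq preparation with a Takara SMART-Seq Stranded kit. The submitters' processing notes name bcl2fastq, FastQC, Trimmomatic 0.32 and GRCm38.p4, and the aligner and counter are not given in the sources used here. Transcripts were matched to GENCODE M21 without version and summed to genes: 40359 of 40414 matched, and the other 55 held at most 0.0631% of a library's counts. Gm20594 held 22.1% to 28.4% of counts in soleus and 17.2% to 20.9% in TA, so reads on other genes are fewer than the totals.

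Counts were tested in R 4.3.3 with edgeR 4.0.16 (filterByExpr, TMM factors 0.911 to 1.11, quasi-likelihood test with a term for sex), with DESeq2 1.42.0 as an alternative. Python 3.11.15 handled tables and plots. Sex effects and the interaction came from a fit of the 4 group means. Scripts were tested on simulated data. Libraries of the same sex and number correlated after group means were removed (r of 0.183 to 0.239 in males, 0.285 in females, which is 1 value by construction), so the numbers, which come from the titles, were taken as pairs for an alternative fit. Shared sequence was counted in words of 31 bases. Other alternatives were other scalings, filters and library sizes, protein-coding transcripts only, each sex alone and each library left out.

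Members and gene lists were chosen with earlier results of these data known. Genes named were all members, every tested sodium pump gene, the 4 tested genes with the smallest p of each other list with relatives of a member, and the 3 most similar genes per member. Some genes that this rule names are not reported here.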

Additional observations from a re-analysis of the deposited data

Results flagged for a closer look

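Kcnj11 in soleus had 1 library far from the others, soleus male 3 at 143 CPM, while the other 4 soleus libraries were between 72.5 and 91.4 CPM. Chance picks out about 1 group in 20 in this way.

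Kcnj11 and Kcna7 had soleus above TA in every male pair and below it in both female pairs. How many of all tested genes show such a pattern was not counted. The log2 difference between soleus and TA in males minus that in females was 0.68 for Kcnj11 (SE 0.348, unadjusted p = 0.0775, edgeR adjusted p = 0.729) and 0.61 for Kcna7 (SE 0.302, unadjusted p = 0.0691, edgeR adjusted p = 0.711), and neither passed the test of that difference.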

How the results depend on the processing

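The calls and directions of Scn4a and Kcnc4 held under every alternative run. Leaving out 1 library in turn kept 5 members called, with log2 fold changes of -0.87 to -0.76 for Scn4a, at most -1.36 for Clcn1, -4.81 to -4.37 for Kcnc4, -0.15 to 0.079 for Kcna7, 0.02 to 0.28 for Kcnj11, 0.75 to 1.11 for Atp1b1 and -3.68 to -2.62 for Atp1b2, and the beta subunit difference at 3.82 to 5.46 points. With the replicate block (paired libraries) 1207 genes and the same number of members, 5, were called, and no call of a named gene changed. Without a filter on low counts 1364 genes were called, and the median of all genes moved by 0.24. On protein-coding transcripts alone 3 members were called, since Clcn1 and Atp1b2 had too few reads, the beta subunit difference was 1.31 points, and Fxyd1 was at -0.13 (-0.35 to 0.23 with 1 library left out). In males alone Kcna7 was at 0.17 and Atp1b2 at -3.32, which did not pass. In females alone Kcnj11 was at -0.20, and Clcn1 (-0.78), Atp1b1 (0.61) and Atp1b2 (-2.47) did not pass, with 2 libraries a group. The interaction was called for 6 genes by DESeq2. By DESeq2 Lrrc8d (adjusted p = 0.0613) and Lrrc8c (0.0895) did not pass. With no filter on low counts Lrrc8d (0.146), Lrrc8c (0.125) and Kcnn3 (0.0565) did not pass, nor did Lrrc8c at a mean of at least 5 CPM (0.0548). Depth limits Clcn1 and Atp1b2, with 24 and 5 reads over all soleus libraries, against 81 and 45 over all TA libraries.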
